A study of Homo sapiens with 12 samples.

Results

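The 9 genes described here are the factors of nonsense-mediated decay (NMD), the pathway that removes mRNAs with a premature stop codon: UPF1, UPF2, UPF3A, UPF3B, SMG1, SMG5, SMG6, SMG8 and SMG9. They were taken as every gene probe whose RefSeq accession belongs to one of these symbols in the RefSeq gene table, and this gave 19 of the 41000 gene probes of the array, for 9 of the 16557 genes that could be named. SMG1 had 6 probes, UPF3A had 4, UPF3B and SMG6 had 2 each, and the other genes had 1. Expression was measured on 12 one-colour arrays of 1 inducible clone of H358, a human lung adenocarcinoma cell line. The clone, H358/Tet-On/SRSF2, carries the splicing factor SRSF2 under a Tet-responsive promoter. Of these arrays, 6 were labelled control, with no treatment given in the labels, and 6 were labelled SRSF2 over-expression (here SRSF2-labelled arrays), after 24 hours with 1 μg/mL doxycycline. Both conditions come from the same clone, so no control line without the transgene was compared, and a doxycycline effect cannot be told apart from an effect of the transgene. Each of 3 slides held 2 arrays of each condition. The study's supplement gives 3 labelings per condition, each hybridised to 2 arrays, which makes 3 and not 6 independent labelings behind each mean, and p-values over 12 arrays count each labeling more than once. Which arrays share a labeling is not given in the sources used here, and the 2 arrays of a condition on 1 slide were averaged as an alternative.

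NMD is triggered when a ribosome terminates upstream of an exon junction complex, the protein mark that splicing leaves on mRNA. UPF1 is the RNA helicase at the centre of the pathway, UPF2 and the paralogues UPF3A and UPF3B bridge it to the exon junction complex, and the kinase SMG1, bound and controlled by SMG8 and SMG9, phosphorylates it. Phosphorylated UPF1 then recruits SMG6, an endonuclease that cuts the mRNA, and SMG5, which helps to bring in decay enzymes and a phosphatase. Several of these factors are known to be encoded by mRNAs that are NMD substrates themselves, and SR protein genes such as SRSF2 produce NMD-sensitive transcripts through conserved exons with premature stop codons.

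Among the NMD factors, SMG8, UPF2 and SMG9 were higher on the SRSF2-labelled arrays, and UPF3A, on all 4 of its probes, SMG5, 1 probe of SMG6 and 1 probe of SMG1 were lower. In limma with Benjamini-Hochberg adjustment over 24326 probes, 3 of the 19 probes were called higher and 7 lower at an adjusted p of at most 0.05, while 9 were not called. When each slide gave 1 averaged value per condition, 3 were called higher and 3 lower, or 3 and 8 when the slide was also a block. Over all probes tested, 29.7% were called higher and 28% lower, so that calls in each direction were common on these arrays and the count of 10 of 19 is no mark of these genes. None of the 19 passed the 2-fold threshold of the study's methods in limma or in the methods' t-test, whether or not p-values were adjusted, against 3.68% of all probes higher and 3.31% lower. The median difference of the 19 probes was -0.21 on the log2 scale, against 0.01 over all probes tested, and the median size of the difference was 0.52 against 0.30. Of the 19 probes, 6 were of SMG1 and 4 of UPF3A, so these are counts and medians of probes and not of genes. Differences are given as SRSF2 over-expression minus control. The arrays of the conditions did not overlap for 3 probes that were higher and 3 that were lower, against 21.2% and 18.9% of all probes tested. A level in these cultures averages over all cells, so fewer cells with a transcript and less of it per cell cannot be told apart.

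**Figure D1:**
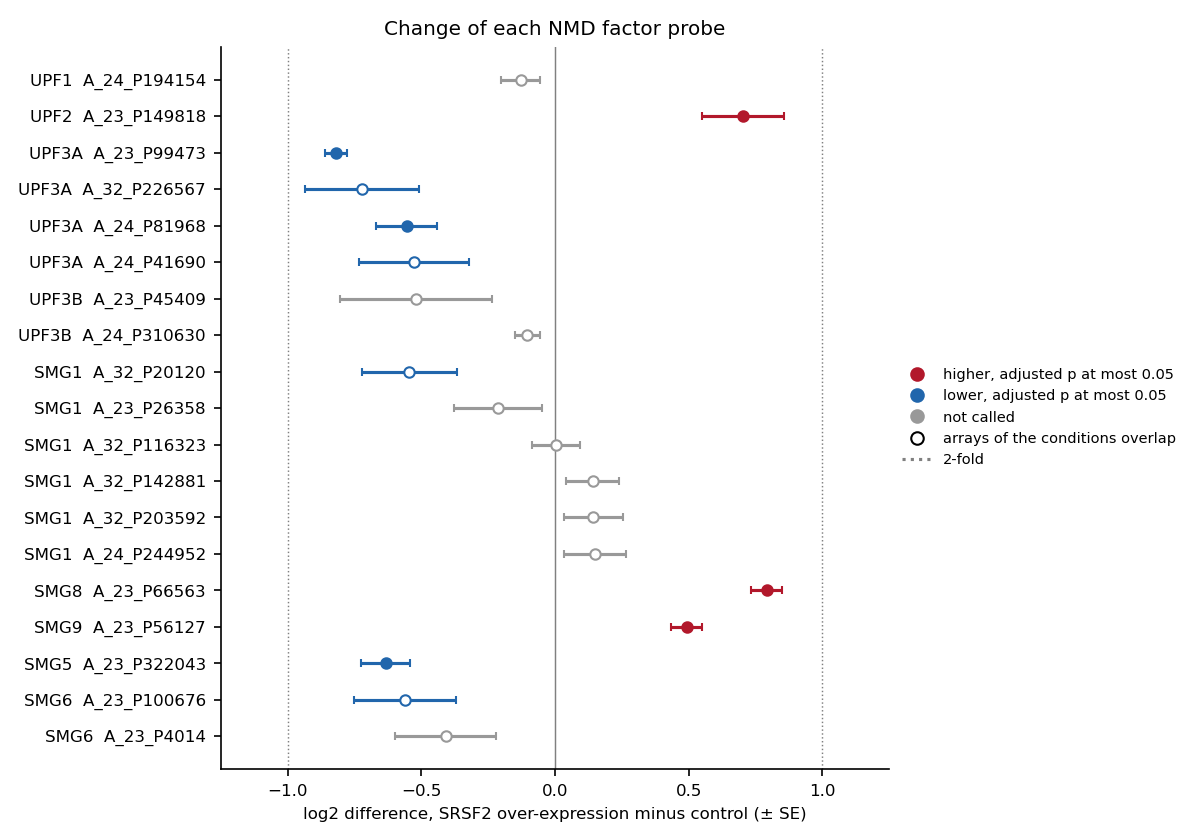
Log2 difference between the SRSF2-labelled arrays and the control arrays (x axis) for the 19 NMD factor probes (y axis), with bars of 1 SE and 6 arrays per condition. Red and blue points were called higher and lower, grey points were not called, open points mark probes whose arrays overlap between conditions, and no probe reached the dotted 2-fold lines.

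The SRSF2 probe, A_23_P77776, went against the labels. Its log2 scaled intensity, which is the processed signal divided by that array's 75th percentile and put on the log2 scale, lay between 3.74 and 4.03 (median 3.96) on the control arrays and between 2.29 and 2.56 (median 2.51) on the SRSF2-labelled arrays. The difference was -1.46 ± 0.06 (SE, limma adjusted p = 1.7e-09). Whether this probe lies in the sequence carried by the transgene is not given in the sources used here, so it does not show which cells expressed the transgene. The study also measured RNA of these cells by RT-PCR, which is not analysed here, and every direction below is the direction between the arrays as labelled. Between 54.2% and 68.0% of gene spots were well above background on an array, and no gene probe was saturated. The 6 epithelial markers (CDH1, EPCAM, KRT7, KRT8, KRT18 and KRT19) were well above background on all 12 arrays, as were NAPSA, NKX2-1, SCGB1A1 and SFTPC of the 5 lung epithelial markers. Of the 8 markers of blood, vessel and stroma with a probe, COL1A2, PDGFRB and PTPRC were well above background on no array, and CD14, PECAM1 and VIM on all of them. The summed scaled intensity of that list was 22.5 to 26.0 on the control arrays and 16.8 to 18.5 on the others, and the probes of VIM, a filament gene that carcinoma cells can also express, made up 96.9% to 98.1% of it. Without VIM the sum was 0.464 to 0.549 and 0.474 to 0.569, with overlap. The epithelial list summed to 589 to 658 on control arrays and 473 to 536 on the others, over the 6 of its 9 probes with a value on every array, and the lung epithelial list to 5.58 to 6.59 and 6.60 to 8.50. These last sums did not overlap between the conditions and moved in opposite directions. Of the summed epithelial probes, KRT19, the brightest, fell by 0.50 and KRT7 by 1.32 on the log2 scale. EPCAM rose by 0.21, and CDH1, KRT18 and the summed KRT8 probe were not called. The brighter KRT8 probe, which was outside the sum, rose by 0.18 and was called. The epithelial markers thus did not fall as a group. The brightest lung epithelial probe, of NKX2-1, rose by 0.34, and the other NKX2-1 probe by 0.42. NAPSA rose by 0.63 on 1 probe and was not called on the other (-0.06). SFTPC and SCGB1A1 were not called. The part of these markers in the results was not tested.

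UPF1, the helicase, was measured by 1 bright probe and was not called. Its log2 scaled intensity ran from 3.42 to 3.67 (median 3.58) on the control arrays and from 3.26 to 3.64 (median 3.42) on the SRSF2-labelled arrays. The ranges overlapped over most of their width, with the lowest values on the SRSF2-labelled arrays of slide 2. The difference was -0.13 (95% interval -0.29 to 0.03, limma adjusted p = 0.15), which leaves room for a decrease. This interval counts arrays that share a labeling as independent, so it can be too narrow to bound the size of a decrease. An alternative named normexp is a model-based subtraction of the local background, run here with an offset of 50 added to the intensities. Scaling on the spike-in probes turned the sign of the UPF1 difference (0.077), as did normexp (0.10), and neither of those values was called. With the slide as a block it was called lower (adjusted p = 0.026), but not when the 2 arrays of a slide were averaged as well (adjusted p = 0.21).

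UPF2, the adaptor between UPF1 and the UPF3 proteins, rose. Its probe read -3.67 to -3.18 (median -3.46) on the control arrays and -3.16 to -2.33 (median -2.80) on the SRSF2-labelled arrays. The conditions did not overlap, although the highest control array and the lowest SRSF2-labelled array nearly touched. The difference was 0.70 ± 0.15 (SE, limma adjusted p = 0.0015), a 1.63-fold increase. On slides 1, 2 and 3 it amounted to 1.14, 0.47 and 0.50. The probe was dim but well above background on all 12 arrays. With normexp background correction and its offset, the difference shrank to 0.04 (limma adjusted p = 0.96). Without background subtraction it was 0.52 and called (limma adjusted p = 0.00175).

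UPF3A fell on all 4 of its probes. On its brightest probe, A_23_P99473, the control arrays lay between 2.48 and 2.54 (median 2.53) and the SRSF2-labelled arrays between 1.66 and 1.80 (median 1.69). The arrays of each condition were packed within a narrow band, and a wide gap without any array separated the bands. The decrease was -0.82 ± 0.04 on the log2 scale (SE, limma adjusted p = 5.3e-09), or 1.76-fold, and it was -0.77, -0.82 and -0.86 on the 3 slides. This probe was called under all 19 alternative processings, with values from -0.84 to -0.61.

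The other 3 UPF3A probes were dimmer and fell as well, with a wider spread. A_24_P81968 read -1.18 to -0.77 (median -0.92) on control arrays and -1.84 to -1.22 (median -1.52) on the others, without overlap, a difference of -0.55 ± 0.11 (limma adjusted p = 0.0011). A_32_P226567 read -1.85 to -1.24 (median -1.72) and -2.86 to -1.66 (median -2.52), and A_24_P41690 read -2.84 to -2.17 (median -2.38) and -3.54 to -2.41 (median -3.01). Both overlapped between conditions, the SRSF2-labelled arrays of slide 1 lying among the control arrays. Their differences were -0.72 ± 0.21 (adjusted p = 0.011) and -0.53 ± 0.20 (adjusted p = 0.042). A_24_P41690 lost its call in the methods' t-test (adjusted p = 0.069), without control replicate 2 (-0.47, adjusted p = 0.084) and without slide 2 (-0.47, adjusted p = 0.21), and A_32_P226567 without slide 2 (-0.61, adjusted p = 0.070) or slide 3 (-0.67, adjusted p = 0.094). With the 2 arrays of a slide averaged, neither was called (adjusted p = 0.18 and 0.086), although both were when the slide was also a block (0.0090 and 0.0042). None of the 6 pairs of UPF3A probes differed in change by an exact two-sided permutation test over all splits of the 12 arrays into 2 groups of 6 (adjusted p = 0.18 to 0.99). The RefSeq table lists 3 UPF3A pseudogenes, and whether they contribute signal to these probes was not tested.

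**Figure D2:**
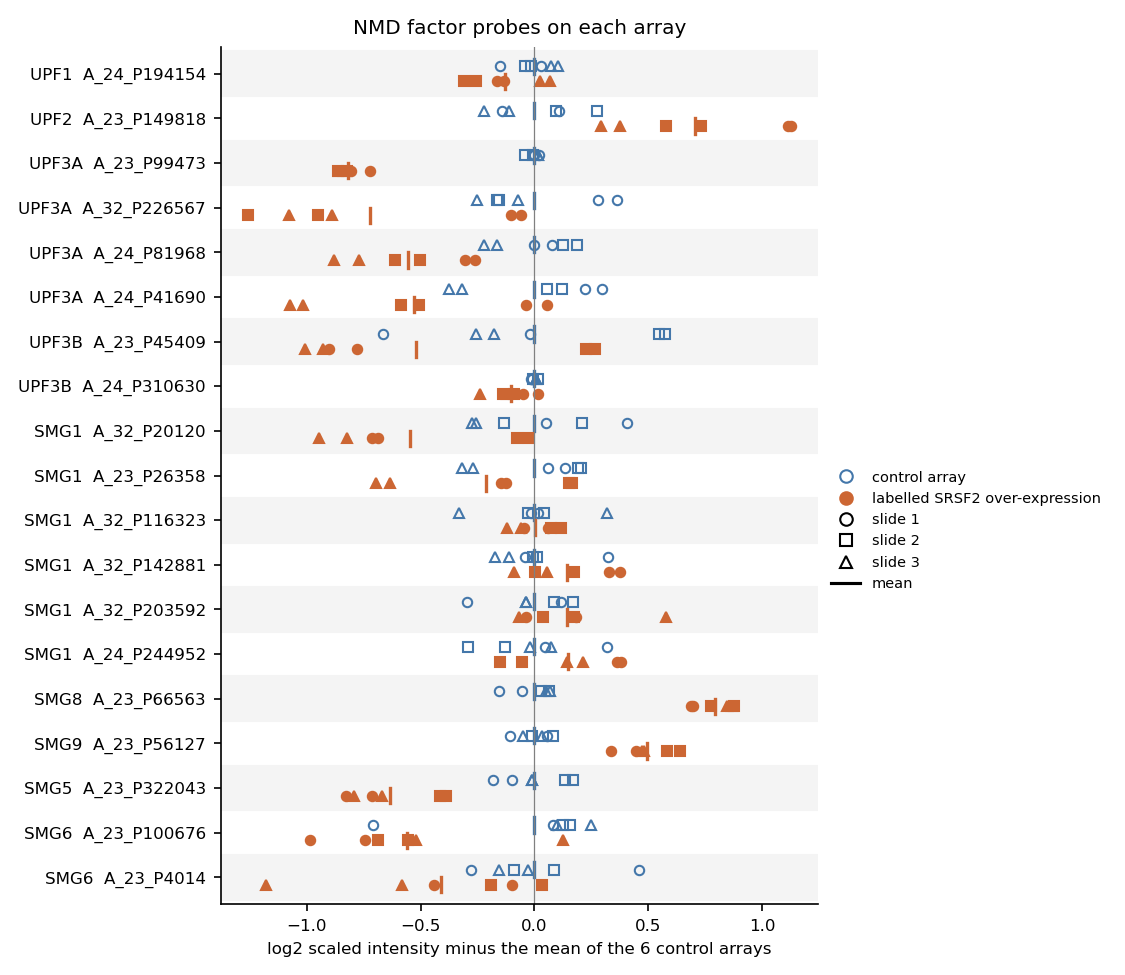
Log2 scaled intensity of the 19 NMD factor probes on each of the 12 arrays (x axis), relative to the mean of the 6 control arrays of the same probe. Open blue symbols are control arrays, filled orange symbols are SRSF2-labelled arrays, shapes mark the 3 slides and bars the means; UPF3A A_23_P99473, SMG8, SMG9 and SMG5 show separate bands, and UPF3B A_23_P45409 follows the slide.

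UPF3B, the paralogue of UPF3A and the more active of the pair in NMD, was measured by 2 probes, and neither was called in the main processing. A_24_P310630 read 1.54 to 1.57 (median 1.55) on the control arrays and 1.31 to 1.57 (median 1.45) on the SRSF2-labelled arrays, of which only replicate 1 reached the control range. The difference was -0.10 (95% interval -0.21 to -0.0012, limma adjusted p = 0.078), with spike-in scaling it was 0.10, and without slide 1 it was -0.15 and called (adjusted p = 0.027). In all, this probe was called lower under 6 of the 19 alternatives. Among them were the methods' t-test (adjusted p = 0.030), the authors' table (limma adjusted p = 0.045) and median scaling (limma adjusted p = 0.035). A_23_P45409 read 0.18 to 1.41 (median 0.74) and -0.17 to 1.11 (median 0.0010), with all 4 arrays of slide 2 high. Its difference was -0.52 (95% interval -1.14 to 0.10, adjusted p = 0.14), and it was -0.50, -0.31 and -0.75 on the 3 slides. With the replicate number as a block, which absorbs the slide, this probe was called lower (adjusted p = 0.0019), as it was without slide 2 (-0.62, adjusted p = 0.0033) and with averaged arrays and a slide block (adjusted p = 0.0077).

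Over the 12 arrays, UPF3A fell more than UPF3B on 2 of 8 comparisons between probes of the 2 paralogues. Within each array, the log2 value of UPF3A A_23_P99473 minus that of UPF3B A_24_P310630 had a mean of 0.97 ± 0.03 (SD, n = 6) in the control condition and of 0.25 ± 0.06 (SD, n = 6) in the other. The change of -0.71 was present on each slide (-0.77, -0.70 and -0.67), and the exact two-sided permutation test gave p = 0.0022, the smallest that these splits allow, and 0.034 after Benjamini-Hochberg adjustment over 31 pairs. UPF3A A_24_P81968 changed by -0.45 against the same UPF3B probe (exact permutation p = 0.0022, adjusted p = 0.034). These splits move all arrays freely and take no account of slides or shared labelings. With the 2 arrays of a slide averaged, an alternative chosen after the data were seen, the smallest exact p for 3 against 3 is 0.10, which both pairs had (adjusted p = 0.74), so a call was out of reach. The other 2 UPF3A probes gave -0.62 and -0.42 against it (adjusted p = 0.14 and 0.18). Against the slide-dependent UPF3B A_23_P45409, the 4 UPF3A probes gave -0.30 to -0.01, with no call. A difference taken within an array does not depend on how arrays are scaled. With normexp values, however, none of the 31 pairs was called after adjustment and 4 were before it, against 8 before adjustment here. The first pair then changed by -0.64, without overlap and again at the smallest exact permutation p (0.0022, adjusted p = 0.067). The pair with UPF3A A_24_P81968 then had an exact permutation p of 0.0498. The adjusted p of 0.034 arose from 2 pairs at the smallest p, and under normexp only 1 pair had it.

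**Figure D3:**
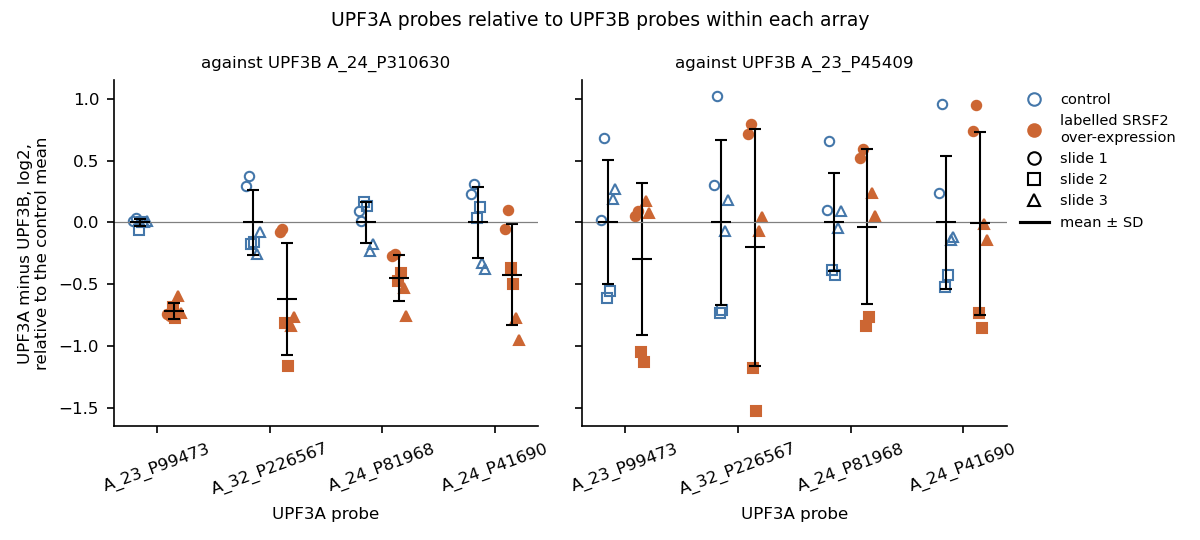
Log2 value of each UPF3A probe minus that of a UPF3B probe within the same array (y axis), relative to the mean of the control arrays, for the UPF3B probes A_24_P310630 (left) and A_23_P45409 (right). Points are the 12 arrays with shapes for slides, and black marks are means with SD; UPF3A A_23_P99473 dropped by a similar amount on every slide against the first UPF3B probe, while the second probe spread the arrays by slide.

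The upstream sequences of the UPF3 paralogues, and of UPF2 and SMG9, which rose, are shown so that the starts of genes that moved differently can be set side by side. They are the 250 bases before the most upstream start listed in RefSeq (GRCh38.p14), written 5′ to 3′ on the strand of the gene. UPF3A is at chr13:114281351-114281600 on the plus strand, UPF3B at chrX:119852964-119853213, UPF2 at chr10:12043171-12043420 and SMG9 at chr19:43754963-43755212, all 3 on the minus strand. Capitals mark matches, on either strand, to 4 motifs. The E-box was searched as CACGTG and the CCAAT box as its name spells it. The core of sites of ETS factors was searched as CCGGAAG. The motif close to the consensus of the factor NRF1 was searched as TGCGC repeated after 1 base of any kind.
UPF3A: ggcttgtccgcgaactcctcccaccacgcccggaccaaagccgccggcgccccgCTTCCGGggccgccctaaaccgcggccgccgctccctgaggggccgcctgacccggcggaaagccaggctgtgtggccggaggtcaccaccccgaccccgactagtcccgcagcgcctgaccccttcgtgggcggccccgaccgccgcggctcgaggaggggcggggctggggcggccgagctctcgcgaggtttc
UPF3B: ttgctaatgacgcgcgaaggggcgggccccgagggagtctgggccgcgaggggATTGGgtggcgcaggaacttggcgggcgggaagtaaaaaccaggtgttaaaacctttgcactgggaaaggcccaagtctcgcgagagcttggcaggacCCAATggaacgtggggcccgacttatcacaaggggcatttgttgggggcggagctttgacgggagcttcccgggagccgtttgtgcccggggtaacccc
UPF2: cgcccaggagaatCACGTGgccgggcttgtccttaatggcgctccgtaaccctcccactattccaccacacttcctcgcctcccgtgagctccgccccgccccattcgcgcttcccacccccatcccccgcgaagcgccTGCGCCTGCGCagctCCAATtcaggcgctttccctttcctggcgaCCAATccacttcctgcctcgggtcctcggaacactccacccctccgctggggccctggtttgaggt
SMG9: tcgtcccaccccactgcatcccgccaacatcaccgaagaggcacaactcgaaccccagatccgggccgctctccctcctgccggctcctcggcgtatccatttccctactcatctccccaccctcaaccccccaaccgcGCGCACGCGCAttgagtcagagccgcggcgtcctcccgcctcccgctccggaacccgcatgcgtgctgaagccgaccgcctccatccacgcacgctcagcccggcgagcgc

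UPF3A held 1 CCGGAAG match, found in 8.78% of 27305 such windows, and no CCAAT, whereas UPF3B held 2 CCAAT matches, a motif of 33% of windows. UPF2 held 1 CACGTG (6.46% of windows), 2 CCAAT and 1 TGCGC repeat, and SMG9 held 1 TGCGC repeat. Of the 8 members in the table, UPF1, UPF2, SMG6 and SMG9 held the TGCGC repeat, against 2.59% of all windows. Of these 4 genes, UPF2 and SMG9 were higher, SMG6 was lower on 1 of its probes and UPF1 was not called, so the match did not go with 1 direction. The motifs were chosen with the sequences in view, and a match is a description of letters and not of a bound site.

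SMG8 and SMG9, which form a complex with SMG1 and restrain its kinase activity, both rose. SMG8 read 0.55 to 0.77 (median 0.74) on control arrays and 1.39 to 1.58 (median 1.51) on the SRSF2-labelled arrays. Every SRSF2-labelled array was far above every control array. The difference was 0.79 ± 0.06 (SE, limma adjusted p = 1.4e-07), a 1.73-fold increase, and was 0.80, 0.78 and 0.80 on the 3 slides. SMG9 read -0.05 to 0.14 (median 0.07) and 0.39 to 0.70 (median 0.53). Again the conditions did not overlap, and the difference was 0.49 ± 0.06 (adjusted p = 1.2e-05), or 1.41-fold. Both kept their call under all 19 alternative processings, with values of 0.74 to 1.00 for SMG8 and 0.40 to 0.70 for SMG9.

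SMG1, the kinase, did not give 1 answer over its 6 probes. A_32_P20120 fell, from -3.18 to -2.50 (median -2.95) on control arrays to -3.85 to -2.93 (median -3.60) on the others, with overlap at the SRSF2-labelled arrays of slide 2. Its difference was -0.54 ± 0.18 (SE, limma adjusted p = 0.020), but the slides gave -0.93, -0.09 and -0.62 in turn, and the call was lost without slide 1 (-0.35, adjusted p = 0.24), without slide 3 (-0.51, adjusted p = 0.065) and with the 2 arrays of a slide averaged (adjusted p = 0.11, and 0.033 with the slide as a block). The other 5 probes had differences of -0.21 to 0.15 and were not called (adjusted p = 0.24 to 0.97). The brightest of them, A_23_P26358, read -0.27 to 0.25 (median 0.14) and -0.65 to 0.21 (median -0.09), a difference of -0.21 (95% interval -0.57 to 0.14). A_24_P244952 read -0.40 to 0.21 (median -0.09) and -0.26 to 0.27 (median 0.07), a difference of 0.15 (95% interval -0.10 to 0.40).

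With the replicate number as a block, these last 2 SMG1 probes were called in opposite directions, lower for A_23_P26358 (adjusted p = 0.017) and higher for A_24_P244952 (adjusted p = 0.036). Neither was called when the 2 arrays of a slide were averaged and the slide was a block (adjusted p = 0.088 and 0.12). Over the 15 pairs of SMG1 probes, the differences in change ran from -0.69 to 0.69 and none was called (exact permutation test, adjusted p = 0.11 to 0.99). The RefSeq table lists 7 SMG1 pseudogenes, and the files do not give the probes' sequences, so which copies each SMG1 probe measured was not tested.

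SMG5, which acts in the dephosphorylation of UPF1, fell. SMG5 read 2.23 to 2.58 (median 2.40) on the control arrays and 1.59 to 2.03 (median 1.72) on the SRSF2-labelled arrays. There was no overlap, and within each condition the arrays of slide 2 were highest. The difference was -0.63 ± 0.09 (SE, limma adjusted p = 6.6e-05), a 1.55-fold decrease, and was -0.63, -0.55 and -0.72 on the 3 slides. With spike-in scaling it was -0.43 and with normexp -0.51, and neither was called (adjusted p = 0.16 and 0.10).

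SMG6, the endonuclease, was lower on its brighter probe. A_23_P100676 read -2.60 to -1.64 (median -1.78) on control arrays and -2.88 to -1.77 (median -2.52) on the SRSF2-labelled arrays. The overlap came from control replicate 2, which was low at -2.60, and from SRSF2 replicate 5, which was at the control level. The difference was -0.56 ± 0.19 (SE, limma adjusted p = 0.024), and without control replicate 2 it was -0.70 (adjusted p = 0.0022), but without slide 2 it was -0.46 and not called (adjusted p = 0.18). With the 2 arrays of a slide averaged it was not called either (adjusted p = 0.069), but was with the slide as a block (0.0047). A_23_P4014 was near background, well above it on 5 of 6 control arrays and 3 of 6 SRSF2-labelled arrays. It read -4.59 to -3.85 and -5.49 to -4.28, a difference of -0.41 (95% interval -0.82 to 0.0035, adjusted p = 0.083), and it was called lower with the replicate block (adjusted p = 0.043) but not with averaged arrays and a slide block (adjusted p = 0.052).

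The lower calls depended more on the processing than the higher ones. With the replicate number as a block, 4 probes were called higher and 10 lower, and with the slide as a block 4 and 12. Of the 3 lower calls that averaging the arrays of a slide left, 2 were UPF3A probes, A_23_P99473 and A_24_P81968, and 1 was SMG5. With averaging and a slide block, the 8 lower calls were the 7 of all arrays and UPF3B A_23_P45409. Scaling on the 6 spike-in probes raised the median difference of all probes by 0.21, so that 76.8% of all calls were higher instead of 51.5%. All member probes moved up with it, 3 remained called higher and only UPF3A A_23_P99473 remained called lower. With normexp, the differences of the 24326 probes were centred 0.11 lower and 2 member probes were called in each direction, SMG8 and SMG9 higher and UPF3A A_23_P99473 and A_24_P81968 lower. Over all probes, normexp left 1410 called higher and 1409 lower, against 7234 and 6806 in the main processing.

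**Figure D4:**
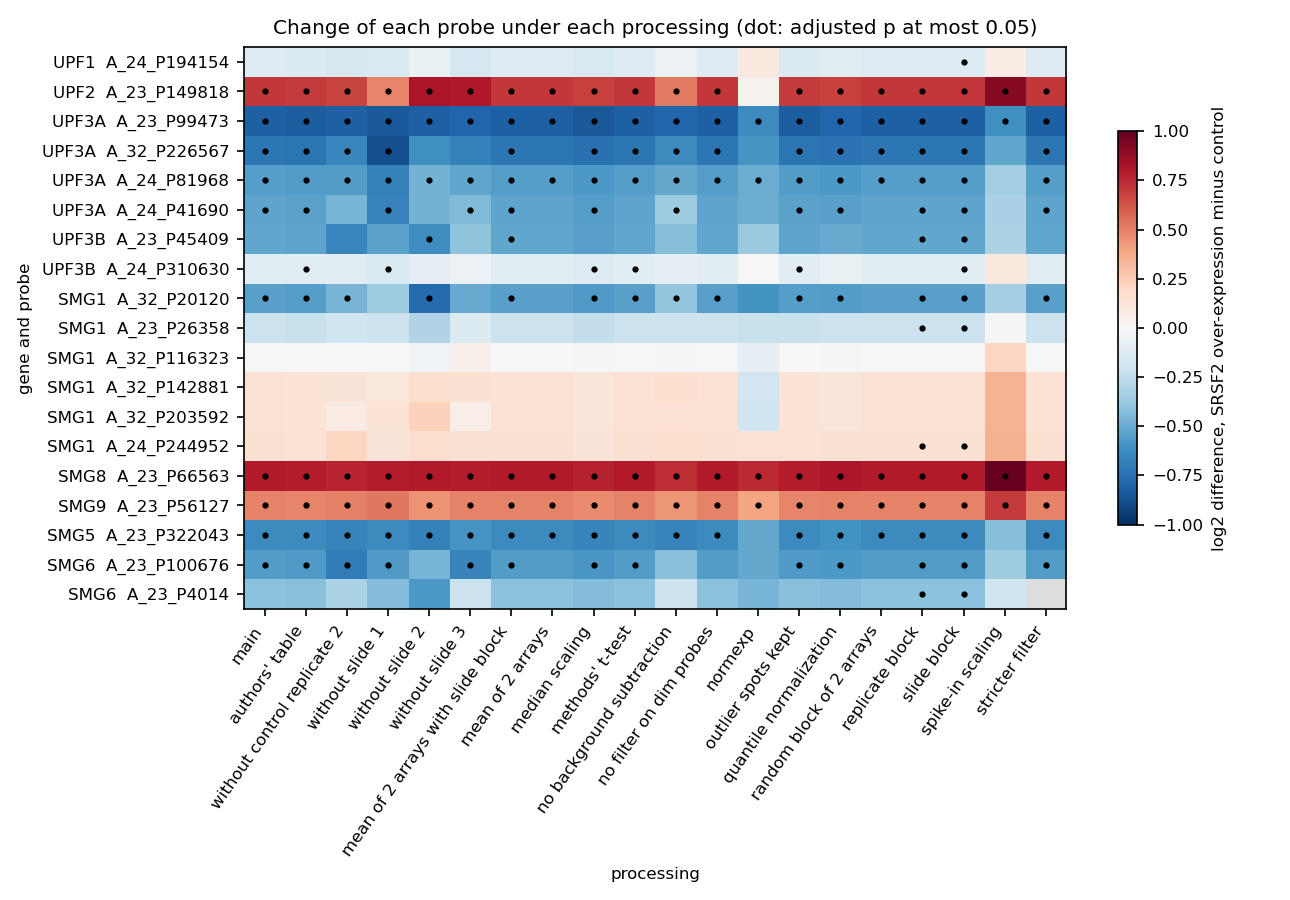
Log2 difference (colour) of each NMD factor probe (y axis) in the main processing and under 19 alternatives (x axis), with a dot where the adjusted p was at most 0.05 and grey where a probe was filtered out. SMG8, SMG9 and UPF3A A_23_P99473 carry a dot in every column. UPF3B A_24_P310630 carries 6 dots and UPF3B A_23_P45409 carries 4, while 5 of the 6 SMG1 probes carry few or none.

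Around the 9 factors, 6 lists were examined, the last of which holds transcripts known as NMD targets and not factors of the pathway. All 6 lists together had 83 probes of 50 genes, and 78 probes were tested. Of these, 37 were called higher and 12 lower, and 3 of the higher ones passed 2-fold. These counts became 8 and 2 with normexp, 27 and 1 with spike-in scaling and 31 and 8 with averaged arrays. Calls over all 24326 probes fell as well, from 7234 higher and 6806 lower. They became 1410 and 1409 with normexp, 5066 and 1530 with spike-in scaling and 4815 and 4676 with averaged arrays. In the main processing, 47.4% of the list probes were higher and 15.4% lower, against 29.7% and 28% of all probes tested, and the median difference was 0.13 against 0.01. RBM8A, XRN1, DIS3L and NAT9 are named below because few probes of their list were called that way. These genes, PYM1 and the brightest CASC3 probe were chosen after their values were seen.

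The exon junction complex, which UPF2 and the UPF3 proteins contact, had 4 of 10 core probes higher and 2 lower, with a median of -0.03. These are 40% and 20%, against 29.7% and 28% of all probes tested. The core protein CASC3 rose by 0.93 ± 0.12 on its dimmest probe, where normexp gave 0.04 and no call (limma adjusted p = 0.96). Its brighter probes rose less, by 0.29 ± 0.04 and, on the brightest, by 0.24 ± 0.06. The helicase EIF4A3 rose by 0.39 ± 0.08. The core subunits MAGOHB and RBM8A fell by 0.32 and 0.21 on the log2 scale, each on 1 probe. Another MAGOHB probe gave -0.13 and was not called. The other RBM8A probes, which were brighter, gave 0.07 and -0.12 and were not called either. Of the 10 probes of peripheral and loading factors, 5 were higher (50%, against 29.7% of all probes tested) and none lower, with a median of 0.32. RNPS1, a peripheral component that can activate NMD when bound to an mRNA, rose by 1.00 ± 0.12 and 0.69 ± 0.12 on its named probes, and CWC22, which brings EIF4A3 to the spliceosome, by 0.78 ± 0.15. PYM1, which takes the complex apart at the ribosome, rose by 0.56 ± 0.12.

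Of 8 probes for translation termination, cap and poly(A) binding, 2 were higher (25%, against 29.7% of all probes tested) and none lower, with a median of 0.02. GSPT1, the release factor eRF3a that contacts UPF1, went from a control median of -0.16 to 0.63, a difference of 0.89 ± 0.12, and NCBP2, the small cap-binding subunit, rose by 0.39 ± 0.06 on 1 probe, with 0.15 and no call on the other. Of the 9 probes of other NMD factors, 1 was higher and 4 lower (11.1% and 44.4%, against 29.7% and 28% of all probes tested), with a median of -0.14. DHX34, a helicase that promotes UPF1 phosphorylation, rose by 1.02 ± 0.14 on a dim probe (above background on 5 of 6 control arrays, and -0.016 with normexp). RUVBL2, an ATPase found with SMG1, fell by 0.90 on the log2 scale, from 3.56 to 3.79 on 5 control arrays to 2.68 to 2.89 on 6 SRSF2-labelled arrays. NBAS and the helicase MOV10 fell by 0.42 and 0.33.

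For the enzymes of mRNA decay, 17 of 28 probes were higher and 5 lower, with a median of 0.27. That is 60.7% and 17.9%, against 29.7% and 28% of all probes tested. These are probes of 16 genes, several with more than 1 probe, so the counts are not counts of enzymes. The decapping activator DDX6 rose by 1.21 ± 0.11 and the nuclear exonuclease XRN2 by 0.88 ± 0.12. The decapping enhancer EDC3 rose by 0.91 ± 0.14 and 0.81 on 2 probes, whereas its brightest probe gave -0.05 and was not called. The deadenylase PARN fell by 0.69 and 0.60 on 2 of 3 probes, the dimmest giving 0.05, and the exosome nuclease EXOSC10 by 0.68, and the cytoplasmic nucleases XRN1 and DIS3L fell by 0.46 and 0.16 on 1 probe each. Under normexp the named DDX6 and EDC3 probes, which were dim, gave 0.26 and 0.03 and were not called.

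Transcripts known as NMD targets were examined with 13 probes for 10 genes. Of these probes, 8 were higher and 1 was lower (61.5% and 7.7%, against 29.7% and 28% of all probes tested), with a median of 0.40. The snoRNA host RNA SNHG1 rose from between 4.11 and 4.45 on control arrays to between 5.08 and 5.32, a difference of 0.90 ± 0.07, and the host RNA GAS5 rose by 0.79 ± 0.13. The stress gene GADD45B rose by 0.93 ± 0.11 on its dimmer probe and by 0.40 ± 0.08 on its brighter one. NAT9 was the probe that fell, by 0.47 on the log2 scale. These RNAs also respond to stress and growth conditions, and their level does not measure the rate of NMD.

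**Figure D5:**
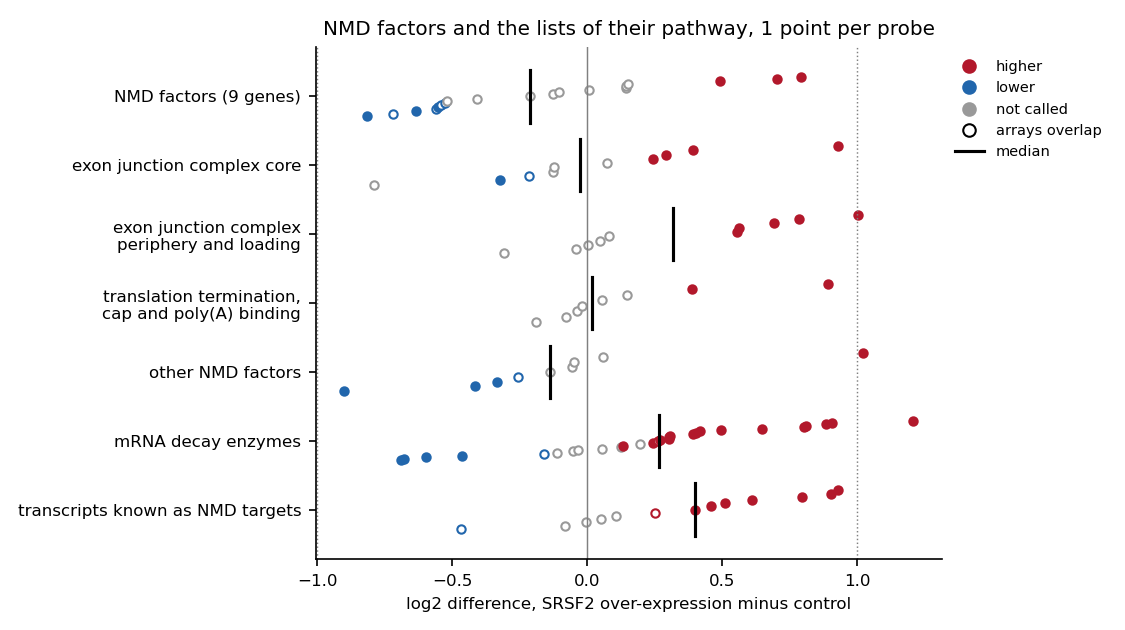
Log2 difference of each tested probe (x axis) for the 9 NMD factors and the 6 lists around them (y axis). Red and blue points were called higher and lower, grey points were not called, open points have overlapping arrays, and black bars are medians, which run from -0.21 for the NMD factors to 0.40 for the transcripts known as NMD targets.

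Among 16018 other named probes with a value on all 12 arrays, those whose pattern was most like UPF3A A_23_P99473 were probes of SLC35F3, DNAAF4, PITPNB, ARMC9 and TOX2, with Pearson correlations of 0.997 to 0.998 over the 12 arrays. Their own differences ran from -1.58 to -0.85. Such correlations follow mainly from 2 separate bands of arrays, and they are given without a test.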

How the data were processed

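Total RNA of the H358/Tet-On/SRSF2 clone was labelled with cyanine 3 and hybridised to Agilent whole-genome arrays. The authors deposited scanner files, made with Feature Extraction 10.7.3.1, whose processed intensity is background-subtracted, and a table of log2 values that were centred for each probe. The log2 of the processed intensity, minus the 75th percentile of each array, was compared with limma 3.58.1 in R 4.3.3, with Benjamini-Hochberg adjustment over 24326 probes. Probes missing on more than 25% of arrays were left out, as were probes that were not well above background on 5 of 6 arrays of either condition. Pairs of probes were compared by exact permutation (scipy 1.17.1). Scripts were tested on simulated data, and 19 other ways of processing were run, 1 of them (without control replicate 2) chosen after seeing the data, as were averaged arrays for the pairs. Arrays with the same replicate number deviated together (r = 0.28 to 0.64), as did arrays of 1 slide with different numbers (0.33 to 0.65), so the number was taken to pair the arrays through the slide. Per the supplement, 3 labelings per condition were each hybridised to 2 arrays, and no source used here says whether they came from separate cultures, so p-values measure a spread that may be technical, and the number of arrays limits the precision. Coordinates of the probes' build (hg18) were not used. The members, gene lists and tests were chosen with earlier results of these data known. Named were all member probes, all SRSF2 probes, from each list up to 3 rises and 3 falls without overlap plus any probe past 2-fold, and the 5 genes most like the member probe with the largest change. For 1 gene of the pathway, results are not reported here.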

Additional observations from a re-analysis of the deposited data

Results flagged for a closer look

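In 83 groups of 6 arrays, the lowest or highest array was compared with the others by its gap relative to the range, and 5 groups had an array beyond Dixon's 95% critical value; chance alone gives about 1 in 20. SMG6 A_23_P100676 was -2.60 on control replicate 2, with the other control arrays between -1.81 and -1.64. On the same array EIF4A3 was 5.06 (others 5.49 to 5.52), CWC22 was -2.10 (others -1.64 to -1.40) and GADD45B was -0.60 (others -0.03 to 0.14). These flags share 1 array and are not independent. Control replicate 2 had the lowest 75th percentile of signal (796, other arrays 925 to 1100) and 251 gene spots flagged as outliers. The other control arrays had 102 to 191 flagged spots, and SRSF2 replicate 1 had 418. The part of array quality in these flags was not tested. EXOSC10 was 2.23 on control replicate 1 (others 2.32 to 2.37). Without control replicate 2, an alternative added after the data were seen, 3 member probes were called higher and 6 lower.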

How the results depend on the processing

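Under the alternatives, the 3 higher calls among the NMD factors numbered 2 to 4. The 7 lower calls became 3 with the mean of 2 arrays, 4 with a random block of 2 arrays, 2 with normexp, 1 with spike-in scaling and 12 with a slide block. No setting brought a member past 2-fold. For the pathway lists, 37 higher and 12 lower calls became 8 and 2 with normexp, and with spike-in scaling the lower calls became 1. The 2 pairs of UPF3A and UPF3B probes called different became 0 with normexp. There the first pair kept the smallest exact permutation p (0.0022) and the second had 0.0498, and why normexp changed the second was not tested. With averaged arrays they also became 0, where no p could pass. With the replicate block, 4 member probes were called higher and 10 lower, and 37 and 15 in the lists, and it changed no other member call than those given above; the slide block also called UPF1 (adjusted p = 0.026) and UPF3B A_24_P310630 (adjusted p = 0.033) lower, and with averaged arrays neither was (adjusted p = 0.21 and 0.28). Leaving out a slide or control replicate 2 gave 3 higher and 5 to 7 lower member calls, 35 to 37 higher and 12 to 16 lower list calls, and -1.48 to -1.44 for the SRSF2 probe. Signs turned for UPF1 (0.10 with normexp, 0.077 with spike-in scaling) and UPF3B A_24_P310630 (0.0063 and 0.10), and with normexp for SMG1 A_32_P142881 (-0.19), SMG1 A_32_P203592 (-0.20) and DHX34 (-0.016). SMG1 A_32_P116323, at 0.0042, was -0.0023 in the authors' table, -0.0030 with outlier spots kept, -0.039 to 0.048 with a slide left out, -0.019 with median scaling, -0.010 without background subtraction, -0.0079 with quantile normalization and -0.085 with normexp. Dim probes (UPF2, SMG6 A_23_P4014, CASC3 A_24_P125353, DHX34, EDC3) are limited by signal over background.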
